A study of Mus musculus with 12 samples.

Results

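The interleukin 1 family and its receptors were followed through 10 genes: the ligand genes Il1a, Il1b, Il18 and Il33, the receptor genes Il1r1, Il1rap and Il1rl1, and the inhibitor genes Il1rn, Il1r2 and Il18bp. A gene belonged to the set when its name in the deposited count table equalled one of these symbols, and all 10 were found among the 39756 genes of the table. For 6 of them (Il1a, Il18, Il33, Il1r1, Il1rap and Il18bp) the counts were sufficient for the model fitted across all genes. The other 4 (Il1b, Il1rn, Il1r2 and Il1rl1) had too few counts in most mice and are given as counts per mouse.

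Interleukins 1 alpha and 1 beta act through the receptor chain encoded by Il1r1 and its co-receptor Il1rap, which signal through MyD88 and IRAK kinases to NF-kappa B. Interleukin 33 uses ST2, the product of Il1rl1, together with the same co-receptor, whereas interleukin 18 has a receptor pair of its own. Signaling is limited by the receptor antagonist (Il1rn), by the decoy receptor (Il1r2) and by a soluble binding protein for interleukin 18 (Il18bp). Interleukin 1 beta and interleukin 18 are made as precursors that inflammasome caspases cleave, and in ischemic brain this system is a well known arm of the early inflammatory response.

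RNA of ischemic hemispheres was sequenced from 12 male C57BL/6J mice, 9 to 10 weeks old by the methods of the study, of which 4 belonged to each group (Sham, Vehicle and LJP). Sham mice had the operation without ischemia, while in Vehicle and LJP mice the left middle cerebral artery was closed with a filament for 45 min and then reperfused, the tMCAO model of stroke. LJP mice received Laminaria japonica polysaccharide, a sulfated polysaccharide of a brown seaweed, by the intragastric route for 14 days before surgery and afterwards, and the Sham and Vehicle mice received saline on the same schedule. The dose and the time of tissue collection are not stated for the sequenced mice themselves; by the account of the study, its middle dose was chosen for the experiments after the comparison of 3 doses, and mice were followed to 3 days after tMCAO. All 12 libraries carry the same batch label.

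Total counts per mouse lay between 17960353 and 22216315, so that 3 counts, the limit that a count of 0 allows, corresponded to 0.129 to 0.173 CPM, counts per 1000000 of the normalized library size. The summed level of 7 neuron markers was 6325 to 7113 CPM in Sham, 3942 to 6216 in Vehicle and 5983 to 7029 in LJP mice, and all 7 were detected in every group. Vehicle mice 1 and 2 stood apart from Vehicle mice 3 and 4. Summed over 11 neutrophil markers their levels were 258 and 115 CPM against 19.7 and 36.1, and over 8 monocyte and macrophage markers 215 and 277 CPM against 20.8 and 44.7. Sham mice had 6.63 to 8.06 and 8.02 to 10.6 CPM of these lists, and LJP mice 12.5 to 23.7 and 11.2 to 23.5. The sum of 4 airway transcripts was 8.35 to 13.2 CPM in Sham and Vehicle mice but 0.36 to 0.67 in LJP mice. That of 5 choroid plexus markers was 31.8 to 903 CPM in Sham (median 568), 19.6 to 529 in Vehicle (253) and 21.8 to 386 in LJP mice (26.3). Their part in the results was not tested.

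Promoters of 4 members are shown: those of Il1b, Il1rn and Il1r2, which had the largest ratios of Vehicle to Sham counts among the members, and that of Il1a, the other interleukin 1 ligand. Each is 300 bases of RefSeq sequence (build GRCm38.p6), from 250 bases before to 50 after a transcription start, in lower case with matches to the searched motifs in capitals. Motifs were searched on both strands as the TATA box (TATAAA), the AP-1 site (TGANTCA), the C/EBP site (TTNNGCAA, found in 10.8% of promoters) and the kappa B site. The last was read as GGG, then any 2 bases, then the run TTTCC.
Il1b, minus strand, chr2:129371090-129371389: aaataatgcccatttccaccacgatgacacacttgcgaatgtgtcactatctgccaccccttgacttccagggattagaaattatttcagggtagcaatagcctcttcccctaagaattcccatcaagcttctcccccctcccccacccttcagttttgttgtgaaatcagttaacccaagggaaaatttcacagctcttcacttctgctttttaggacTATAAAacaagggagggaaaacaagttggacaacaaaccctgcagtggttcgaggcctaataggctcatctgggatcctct
Il1a, minus strand, chr2:129309923-129310222: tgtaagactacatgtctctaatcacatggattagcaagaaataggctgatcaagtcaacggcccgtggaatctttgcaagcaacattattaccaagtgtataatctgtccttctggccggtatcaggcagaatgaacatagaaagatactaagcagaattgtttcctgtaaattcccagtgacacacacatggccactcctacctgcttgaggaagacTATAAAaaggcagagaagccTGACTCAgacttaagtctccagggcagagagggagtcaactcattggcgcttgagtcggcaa
Il1rn, plus strand, chr2:24345121-24345420: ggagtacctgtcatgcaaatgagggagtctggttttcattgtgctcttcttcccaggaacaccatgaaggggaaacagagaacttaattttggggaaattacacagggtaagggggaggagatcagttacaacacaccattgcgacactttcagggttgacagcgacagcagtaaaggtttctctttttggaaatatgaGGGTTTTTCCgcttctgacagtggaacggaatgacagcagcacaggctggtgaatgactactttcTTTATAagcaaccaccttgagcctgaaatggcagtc
Il1r2, plus strand, chr1:40085843-40086142: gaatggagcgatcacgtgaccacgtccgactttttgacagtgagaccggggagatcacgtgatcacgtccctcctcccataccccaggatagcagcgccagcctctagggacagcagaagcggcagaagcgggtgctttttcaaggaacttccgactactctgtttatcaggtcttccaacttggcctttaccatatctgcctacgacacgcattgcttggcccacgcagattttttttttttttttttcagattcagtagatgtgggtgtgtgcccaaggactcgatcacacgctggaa

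The TATA letters began 31 bases before the start of Il1b and 32 bases before that of Il1a, and 13.6% of 32851 promoters held them. Il1a also had an AP-1 match 12 bases before its start (7.81% of promoters). The capitals of the Il1rn promoter mark a kappa B match 51 bases before the start (1.63% of promoters) and TATA letters on the other strand inside the transcript. Of the Il1rn promoters, the one shown held the most matches. In the window that overlaps it, the same kappa B letters lay 29 bases after the start. The Il1rn window at chr2:24336610-24336909 had no kappa B match. The Il1r2 window held none of the 4 letter patterns. All 10 members had promoters in the reference, 15 in total. Among them 6 promoters of 5 members held the TATA letters, 4 promoters of 4 members the C/EBP letters, 2 promoters of 2 members (Il1a and Il1rn) the AP-1 letters, and 2 overlapping promoters of Il1rn the same kappa B letters.

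In Sham brain the members spanned a wide range. Per kilobase of gene length, the level of Il33 was 12.5 ± 1.24 CPM (SD, n = 4 mice), followed by Il18 at 4.82 ± 0.292, Il1rap at 2.34 ± 0.135, Il18bp at 1.28 ± 0.495 and Il1r1 at 0.593 ± 0.0499 CPM per kilobase. The other 5, in the order Il1a, Il1b, Il1rl1, Il1r2 and Il1rn, lay between 0.104 and 0.0246 CPM per kilobase, and of these the neighbours from Il1a to Il1r2 differed by no more than their SDs. In Vehicle mice Il33 was again first in this order, at 20.2 ± 1.41 CPM per kilobase. Behind it Il1r1 (4.20 ± 3.89), Il18 (4.14 ± 1.12), Il1r2 (3.16 ± 3.45) and Il1rap (2.76 ± 0.293) could not be ordered, because the SDs of Il1r1 and Il1r2 were about as large as their means. In LJP mice the order was Il33 (15.5 ± 6.24), Il18 (5.13 ± 0.609), Il1rap (2.78 ± 0.284), Il18bp (1.54 ± 0.129) and Il1r1 (1.31 ± 0.327), the last pair within their SDs, and Il1r2 was at 0.0560 ± 0.0332 CPM per kilobase.

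**Figure D1:**
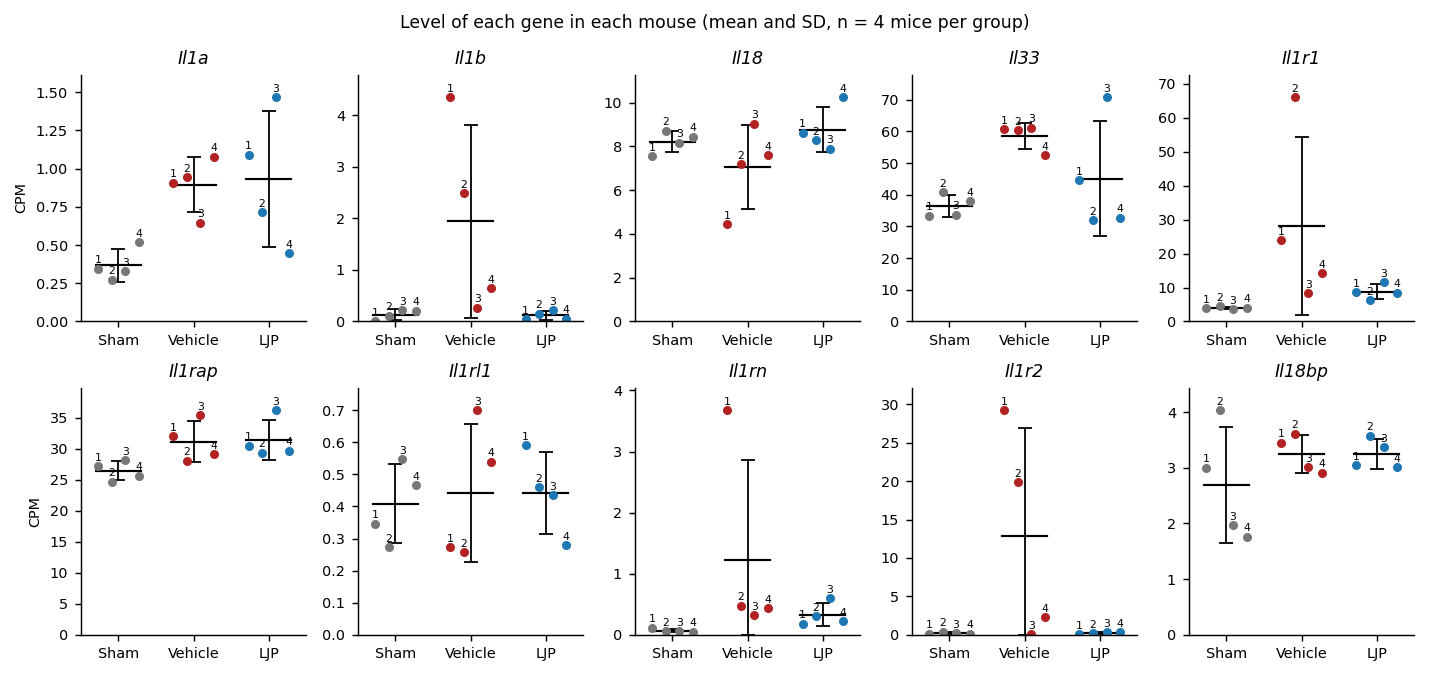
Level in CPM (vertical axis, from 0) of each of the 10 genes in each mouse of the Sham, Vehicle and LJP groups. Points are mice with their numbers, horizontal lines are means and bars are SDs (n = 4), drawn no lower than 0. Il1b, Il1r1, Il1rn and Il1r2 reach their highest level in Vehicle mouse 1 or 2, while Il33 is raised evenly in the Vehicle group and Il1rl1 overlaps in all groups.

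Among the ligands, Il1a, Il1b and Il33 were higher in Vehicle than in Sham mice, and Il18 did not pass the test. Il1b, the secreted inflammatory ligand (minus strand of chromosome 2, 129364569 to 129371164, in build GRCm38, which all gene positions here follow), had 0, 2, 4 and 4 counts in Sham mice 1 to 4. In Vehicle mice 1 to 4 it had 96, 58, 5 and 12 counts, and in LJP mice 1, 3, 4 and 1. Every Vehicle mouse was above every Sham and every LJP mouse, but Vehicle mouse 3 exceeded the highest of them by 1 count.

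The summed Il1b counts per library size were 15.2 times higher in Vehicle than in Sham mice (95% counting interval 8.06 to 32.2, exact permutation test of log2(CPM + 0.5) against both sides, p = 0.0286, unadjusted). They were 18.0 times lower in LJP than in Vehicle mice (interval 9.24 to 39.9, exact permutation p = 0.0286). This is the smallest p that 4 mice against 4 allow. The intervals cover counting error only. Of 5187 genes removed by the same filter with 15 counts or more, 4.67% lay wholly above Sham in the Vehicle group and 2.08% wholly below Vehicle in the LJP group. LJP and Sham mice did not separate (9 against 10 counts in all, exact permutation p = 0.886, ratio 0.846 with an interval of 0.304 to 2.32).

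The size of the Il1b difference rested on Vehicle mice 1 and 2. Without both, the ratio to Sham was 3.35 and the ratio of Vehicle to LJP 3.96. Without Vehicle mouse 1 alone these were 9.09 and 10.7. Fitted by edgeR to every gene with a count, Il1b had an adjusted p of 0.00314 for Vehicle against Sham, where 13.1% of genes passed as higher, and of 0.0410 for LJP against Vehicle, where 1.80% passed as lower. The adjusted p-values of DESeq2 were 0.00018 and 0.00156. The neutrophil marker sum, also highest in Vehicle mice 1 and 2, ordered the Vehicle mice as Il1b did. It was 12.5 to 23.7 CPM in LJP mice, where most of it was Csf3r, and 6.63 to 8.06 in Sham mice. Il1b had 9 and 10 counts in these groups. The part of the marker cells in the result was not tested. In tissue of this kind more cells of a type and more RNA per cell cannot be told apart. The antisense transcript Il1bos overlaps 1263 bases of Il1b and had 0 to 8 counts per mouse, and since the strand setting of the counting is not given, reads of the pair may be mixed at these low levels.

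Il1a, the ligand that is active without cleavage by an inflammasome (minus strand of chromosome 2, 129299609 to 129310186), had 6, 5, 6 and 10 counts in the Sham mice. The Vehicle mice had 20, 22, 12 and 20 counts, and the LJP mice 24, 14, 27 and 8. All Vehicle mice lay above all Sham mice, and unlike Il1b the gene was no higher in Vehicle mice 1 and 2 than in mouse 4. Il1a rose 2.41-fold, or 1.27 ± 0.39 (standard error) on the log2 scale, with an adjusted p of 0.0214 in edgeR. It entered this fit only through its counts after ischemia, and in the fit of every gene with a count its adjusted p was 0.0395 in edgeR. Leaving out Sham mouse 1, 2 or 3 moved the adjusted p to 0.0525, 0.0598 and 0.0543, so the call depends on single mice at this depth. Without Vehicle mice 1 and 2 it was 1.21 (edgeR adjusted p = 0.0869).

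The levels of Il1a in LJP and Vehicle mice overlapped. The log2 fold change was 0.06 with a 95% interval of -0.70 to 0.82 (edgeR adjusted p = 0.922), wide enough to include a substantial change either way. Against Sham the LJP group differed by 1.33 (edgeR adjusted p = 0.0766), with LJP mouse 4 inside the Sham range. Without that mouse the value was 1.55 (edgeR adjusted p = 0.0308). The summed level of 8 microglia markers was 304 to 309 CPM in Sham, 419 to 840 in Vehicle and 514 to 863 in LJP mice, and its part in the Il1a values was not tested. The lncRNA Gm14023 shares 8218 bases of the Il1a span on the other strand, with 0 to 13 counts per mouse.

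Il33, an alarmin held in the nucleus and released by damaged cells (plus strand of chromosome 19, 29925113 to 29960718), had by far the highest level per length of the members. Sham mice had 578, 749, 614 and 733 counts and Vehicle mice 1337, 1404, 1137 and 975, with no overlap in CPM. LJP mice were split, with 983 and 1303 counts in mice 1 and 3 and 626 and 587 in mice 2 and 4. In CPM, LJP mouse 4 (32.7) and LJP mouse 2, which was slightly lower still, lay below all Sham mice (33.3 to 40.8). LJP mouse 1 (44.7) lay between the Sham and Vehicle ranges, and LJP mouse 3 (70.9) lay above all Vehicle mice (52.5 to 61.2).

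Il33 rose 1.61-fold in Vehicle mice, or 0.69 ± 0.21 (standard error) in log2 units, with an adjusted p of 0.0198 in edgeR. Without Sham mouse 1 or 3 the adjusted p was 0.0566 and 0.0537, and without Vehicle mice 1 and 2 the log2 fold change was 0.63 (edgeR adjusted p = 0.0518). LJP differed from Vehicle by -0.38 on the log2 scale (95% interval -0.83 to 0.06, edgeR adjusted p = 0.226) and from Sham by 0.31 (edgeR adjusted p = 0.472). In mouse brain, oligodendrocytes and astrocytes are the known sources of interleukin 33. The summed level of 7 oligodendrocyte markers was 4610 to 5621 CPM in Sham, 5823 to 6361 in Vehicle and 4635 to 5791 in LJP mice, highest among LJP mice in mouse 3. Of 6 astrocyte markers, 2 rose in Vehicle against Sham (Aldh1l1 by 1.12 and Sox9 by 0.74 on the log2 scale), 1 fell (Slc1a2, by 0.76) and 3 did not pass, with a median of 0.17. Their part in the Il33 values was not tested.

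Il18, made as a precursor for caspase-1 (plus strand of chromosome 9, 50554700 to 50581841), did not follow the other ligands. Its counts were 131, 160, 149 and 163 in Sham, 98, 167, 168 and 141 in Vehicle and 190, 162, 145 and 184 in LJP mice. The groups overlapped in every comparison, and the lowest level was that of Vehicle mouse 1. The log2 fold change was -0.22 for Vehicle against Sham (95% interval -0.62 to 0.18, edgeR adjusted p = 0.359) and 0.31 for LJP against Vehicle (-0.09 to 0.71, edgeR adjusted p = 0.263). Without Vehicle mice 1 and 2 the former was 0.01. Bco2 and Tex12, on the other strand, overlap 515 and 4121 bases of Il18 and had 27 to 79 and 0 to 5 counts per mouse.

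Among the receptors, Il1r1 rose with the smallest adjusted p of the 6 tested members. It encodes the signaling receptor for both interleukin 1 ligands (plus strand of chromosome 1, 40222480 to 40316201). Sham mice had 67, 81, 66 and 78 counts, a narrow range. Vehicle mice had 529, 1540, 155 and 263 counts, all above Sham but widely spread, and LJP mice had 191, 123, 214 and 153. The means were 3.98 ± 0.335 CPM in Sham, 28.2 ± 26.1 in Vehicle and 8.78 ± 2.20 in LJP mice (SD, n = 4).

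The rise of Il1r1 in Vehicle mice was 7.08-fold, or 2.82 ± 0.52 (standard error) in log2 units, with an adjusted p of 0.00172 in edgeR. It passed whichever single mouse was left out, with log2 fold changes from 1.96 (without Vehicle mouse 2) to 3.12, and also without Vehicle mice 1 and 2 (1.49, edgeR adjusted p = 0.000257). LJP mice had 3.22-fold less than Vehicle mice, a log2 fold change of -1.69 (95% interval -2.74 to -0.63), and the adjusted p of 0.0712 in edgeR did not pass. DESeq2 called it (adjusted p = 0.0248), as did edgeR without Vehicle mouse 3 (-1.98, adjusted p = 0.0128) or Vehicle mouse 4 (-1.91, adjusted p = 0.0352). Without Vehicle mouse 2 it was -0.82 (edgeR adjusted p = 0.140), and without Vehicle mice 1 and 2 it was -0.36 (edgeR adjusted p = 0.504).

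Every LJP mouse had more Il1r1 than every Sham mouse, and the groups differed by 1.14 in log2 units (edgeR adjusted p = 0.252). With only these groups in the fit the adjusted p of edgeR was 0.000573, where 12.5% of genes passed as higher, and without Vehicle mouse 2 it was 0.0201. Il1r1 is expressed by brain endothelium among other cells. The summed level of 6 endothelial markers was 201 to 222 CPM in Sham and 204 to 257 in LJP mice, and 636, 1325, 285 and 340 in Vehicle mice 1 to 4, in the same order as Il1r1 in these 4 mice. Summed over 6 fibroblast and meningeal markers it was 112 to 119, 112 to 176 and, in the Vehicle mice, 169, 1028, 187 and 248 CPM. Their part in the Il1r1 result was not tested.

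**Figure D2:**
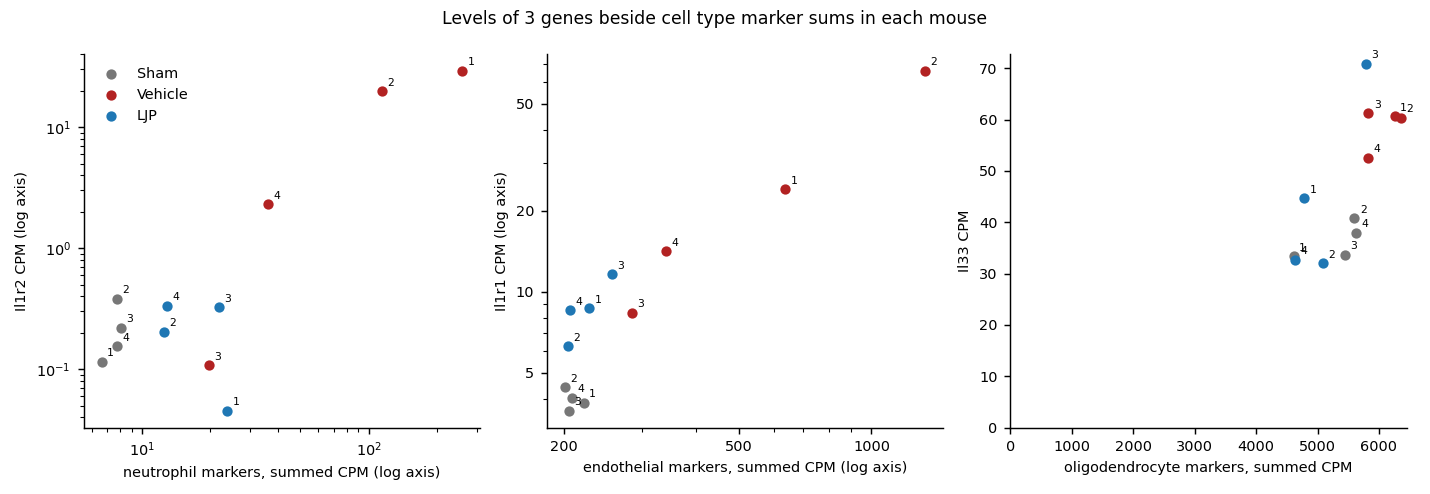
Level of Il1r2, Il1r1 and Il33 (vertical axes, CPM) against the summed CPM of neutrophil, endothelial and oligodendrocyte markers (horizontal axes) in each of the 12 mice, numbered within their groups. The axes of the left and middle panels are logarithmic and those of the right panel linear from 0. Vehicle mice 1 and 2 lie at the upper right for Il1r2 and Il1r1, and LJP mouse 3 has the highest Il33 level, 70.9 CPM.

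Il1rap, the co-receptor shared by the interleukin 1 and interleukin 33 receptors (plus strand of chromosome 16, 26581509 to 26730128), was abundant and steady. Its counts were 471, 453, 513 and 495 in Sham, 704, 652, 658 and 540 in Vehicle and 670, 574, 665 and 532 in LJP mice. The log2 fold change for Vehicle against Sham was 0.24 (95% interval 0.02 to 0.45, edgeR adjusted p = 0.0720), with Vehicle mouse 2 inside the Sham range. It passed without that mouse (0.28, edgeR adjusted p = 0.0456) and with scaling by library size alone (0.31, edgeR adjusted p = 0.0246). LJP and Vehicle differed by 0.01 on the log2 scale with an interval of -0.20 to 0.23 (edgeR adjusted p = 0.938). All LJP mice lay above all Sham mice, by 0.25 on the log2 scale (edgeR adjusted p = 0.188, and 0.0417 with only these groups in the fit). Alternative forms of Il1rap, including the neuronal one, are summed in these counts, and the lncRNA Gm20319 on the other strand had 11 to 30 counts.

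Il1rl1, which encodes the interleukin 33 receptor ST2 (plus strand of chromosome 1, 40404864 to 40465418), was near the floor in all groups. It had 6, 5, 10 and 9 counts in Sham, 6, 6, 13 and 10 in Vehicle and 13, 9, 8 and 5 in LJP mice. The groups overlapped throughout. The ratio of summed counts was 1.04 for Vehicle to Sham (counting interval 0.618 to 1.75, exact permutation p = 0.914) and 1.06 for LJP to Vehicle (0.643 to 1.74, exact permutation p = 0.943). While Il33 rose, its receptor gene gave 30 counts in 4 Sham mice, 35 in 4 Vehicle mice and 35 in 4 LJP mice. The counting interval leaves out the spread between mice, so it sets no upper limit on a rise of Il1rl1. Without Vehicle mice 1 and 2 the ratio of Vehicle to Sham was 1.51. ST2 is known on mast cells, of whose 6 markers the protease genes Cpa3, Mcpt4, Cma1 and Tpsb2 had 1, 1, 6 and 7 counts over all 12 mice. Of the other two, Kit averaged 42.0, 44.5 and 35.6 CPM in Sham, Vehicle and LJP mice and passed in no comparison, and Hdc rose in Vehicle mice (1.65 on the log2 scale, edgeR adjusted p = 0.0157). Their part in the Il1rl1 values was not tested. Soluble and membrane forms of ST2 are not distinguished by gene counts.

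The decoy receptor Il1r2, which binds interleukin 1 without signaling (plus strand of chromosome 1, 40084692 to 40125230), had the largest ratio of highest to lowest level of all members within the Vehicle group. Sham mice had 2, 7, 4 and 3 counts and LJP mice 1, 4, 6 and 6. Vehicle mice had 644, 462, 2 and 43 counts. Thus 3 of 4 Vehicle mice were far above every mouse of the other groups, and Vehicle mouse 3 was below all but 1 mouse of the series in CPM.

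Because of Vehicle mouse 3, the groups overlapped and the exact permutation test did not pass for Vehicle against Sham (p = 0.143) or for LJP against Vehicle (exact permutation p = 0.114). The ratio of summed Il1r2 counts was 63.9 for Vehicle to Sham (counting interval 39.2 to 112) and 64.0 for Vehicle to LJP (39.8 to 110). Without Vehicle mouse 1 these ratios were 38.4 and 38.5, and without Vehicle mice 1 and 2 both were 5.55. Models that took in genes with few counts passed both comparisons: edgeR without the filter gave log2 fold changes of 5.85 (adjusted p = 0.00111) and -5.82 (adjusted p = 0.0410), and DESeq2 adjusted p-values of 1.03e-05 and 0.000616. LJP and Sham gave 17 and 16 counts, a ratio of 0.999 (counting interval 0.475 to 2.11, exact permutation p = 0.943).

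Il1r2 is a known neutrophil gene. The neutrophil marker sums of Vehicle mice 1 to 4 were 258, 115, 19.7 and 36.1 CPM, in the same order as their Il1r2 levels of 29.2, 19.9, 0.108 and 2.32 CPM. LJP mice 1 and 3, with marker sums of 23.7 and 21.9 CPM, had Il1r2 at 0.0454 and 0.326 CPM. In LJP mice the sum was mostly Csf3r (mean 15.2 CPM), which was also the most abundant marker in Sham mice (5.82 CPM). The more restricted markers S100a8, S100a9 and Cxcr2 averaged 0.142, 0.203 and 0.0528 CPM in LJP mice and 0.110, 0.0820 and 0 in Sham mice. In Vehicle mice 1 to 4, S100a8 was at 52.6, 11.9, 0.215 and 1.78 CPM, S100a9 at 62.1, 13.0, 0.161 and 1.45 CPM and Cxcr2 at 18.5, 6.27, 0.0538 and 0.485 CPM. In Sham mice 2 of the 11 neutrophil markers had no count in any mouse. The part of these cells in the Il1r2 values was not tested. The lncRNA Gm16894 overlaps 1160 bases of Il1r2 on the other strand and had 14 to 35 counts per mouse in all groups, more than Il1r2 itself had in Sham and LJP mice.

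Il1rn, which encodes the receptor antagonist (plus strand of chromosome 2, 24336860 to 24351491), had 2, 1, 1 and 1 counts in Sham mice, 81, 11, 6 and 8 in Vehicle mice and 4, 6, 11 and 4 in LJP mice. All Vehicle and all LJP mice were above all Sham mice, and Vehicle mouse 1 stood far above the other 3. Vehicle exceeded Sham 18.8-fold in summed counts (counting interval 7.82 to 59.2, exact permutation p = 0.0286), and 6.06-fold without Vehicle mouse 1. LJP exceeded Sham 4.70-fold (1.77 to 15.7, exact permutation p = 0.0286), where 2.51% of the removed genes lay wholly above Sham. Between Vehicle and LJP the groups overlapped (exact permutation p = 0.2): the ratio was 4.01 (2.57 to 6.47), and 1.29 without Vehicle mouse 1. The unfiltered edgeR fit gave an adjusted p of 0.00357 for Vehicle against Sham and 0.148 for LJP against Vehicle, and DESeq2 gave no adjusted p.

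Il18bp, the binding protein that neutralizes interleukin 18 (minus strand of chromosome 7, 102015074 to 102018232), had 52, 74, 36 and 34 counts in Sham, 76, 84, 56 and 54 in Vehicle and 67, 70, 62 and 54 in LJP mice. The Sham mice spanned 1.76 to 4.03 CPM and enclosed all the others. The log2 fold change was 0.27 for Vehicle against Sham (95% interval -0.25 to 0.80, edgeR adjusted p = 0.389) and 0.00 for LJP against Vehicle (-0.52 to 0.53, edgeR adjusted p = 0.999).

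Counted together, 3 of the 6 tested members (Il1a, Il1r1 and Il33) passed in Vehicle against Sham, all higher, where 22.7% of the 17558 genes tested were called higher and 39.9% in either direction. Il1a was tested only through its Vehicle and LJP counts, and of the 5 members that the Sham counts alone would have kept, 2 passed. The same 3 did not overlap between the groups (20.7% of genes tested were wholly higher). The median log2 fold change of the 6, Il1a included, was 0.48, and that of the 5 without Il1a was 0.27. Over all genes tested it was 0.00. In LJP against Vehicle no tested member passed in edgeR (0.0228% of genes, 4 in all, did), 1 of the 6 (Il1r1) had an unadjusted p under 0.05 (29.7% of genes), and DESeq2 called 3 members lower, Il1b, Il1r1 and Il1r2 (9.15% of its genes). The median was 0.01. In LJP against Sham no member passed in edgeR (4.75% of genes did in either direction) or in DESeq2. An unadjusted p under 0.05 was found for 3 of the 6, Il1a, Il1r1 and Il1rap (18.8% of genes), and Il1r1 and Il1rap were wholly higher (12.9% of genes). In Vehicle against Sham DESeq2 called 5 members higher, Il1b and Il1r2 among them (18.9% of its genes). Without Vehicle mice 1 and 2, edgeR called 1 of the 6 tested members higher, Il1r1 (16.1% of genes).

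**Figure D3:**
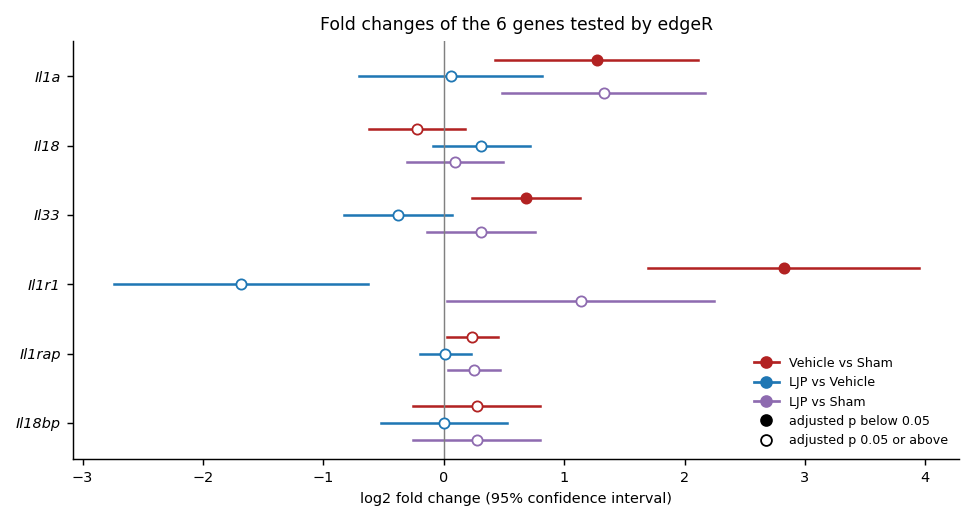
Log2 fold changes (horizontal axis) with 95% confidence intervals of the 6 tested genes in the 3 comparisons, from the edgeR fit over 12 mice. Filled points passed an adjusted p of 0.05: Il1a (1.27), Il33 (0.69) and Il1r1 (2.82) in Vehicle against Sham. The Il1r1 interval for LJP against Vehicle, -2.74 to -0.63, lies below 0 without passing the adjustment over all genes.

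Ratios within a mouse set decoy against signaling receptor, antagonist or binding protein against ligand, and receptor against ligand, and are given on the scale of log2(CPM + 0.5), without a test. Il1r2 to Il1r1, decoy to signaling receptor, was -2.65 ± 0.18 in Sham and -3.66 ± 0.37 in LJP mice (SD, n = 4). Il1r2 in these groups lay below the added 0.5 CPM, and the plain CPM ratios of LJP and Sham mice overlapped. In Vehicle mice 1 to 4 it was 0.28, -1.71, -3.86 and -2.38, a range wider than both other groups together. Il1rn to Il1b was -0.14 ± 0.31 in Sham, -0.51 ± 0.76 in Vehicle and 0.40 ± 0.14 in LJP mice, all from few counts. Il18bp to Il18 was -1.51 ± 0.46, -0.98 ± 0.49 and -1.30 ± 0.24, and Il1rl1 to Il33 was -5.35 ± 0.29, -6.00 ± 0.37 and -5.53 ± 0.50.

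Il1r2 and Il1r1 belong to a cluster of 6 receptor genes on the plus strand of chromosome 1, between 40084692 and 40551707, in the order Il1r2, Il1r1, Il1rl2, Il1rl1, Il18r1 and Il18rap. The ratios of mean CPM in Vehicle to Sham along the cluster were 59.1, 7.07, 5.84, 1.08, 2.19 and 92.3. Those of Il1r2, Il1rl1, Il18r1 and Il18rap rest on few Sham counts. Without Vehicle mice 1 and 2 their ratios of summed counts were 5.55, 1.51, 2.37 and 15.1. Il1rl2, the receptor for the interleukin 36 ligands, had 6, 14, 12 and 21 counts in Sham, 67, 187, 56 and 48 in Vehicle and 48, 28, 55 and 19 in LJP mice, and rose by 2.53 on the log2 scale (standard error 0.47, edgeR adjusted p = 0.00184), tested only through its counts after ischemia. It did not pass in LJP against Vehicle (-1.12, edgeR adjusted p = 0.117).

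Il18rap, the accessory chain of the interleukin 18 receptor, had 1, 1, 1 and 0 counts in Sham, 119, 204, 7 and 16 in Vehicle and 6, 5, 7 and 6 in LJP mice. Every Vehicle and LJP mouse was above every Sham mouse. The ratio of summed counts was 102 for Vehicle to Sham (counting interval 34.8 to 499, exact permutation p = 0.0286), 58.6 without Vehicle mouse 2, and 15.1 without Vehicle mice 1 and 2. Il18r1, its partner chain, had 5 counts in all Sham mice, 12 in Vehicle and 3 in LJP mice. The pair that receives interleukin 18 was thus detected very unevenly, while its ligand was well expressed in all groups.

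**Figure D4:**
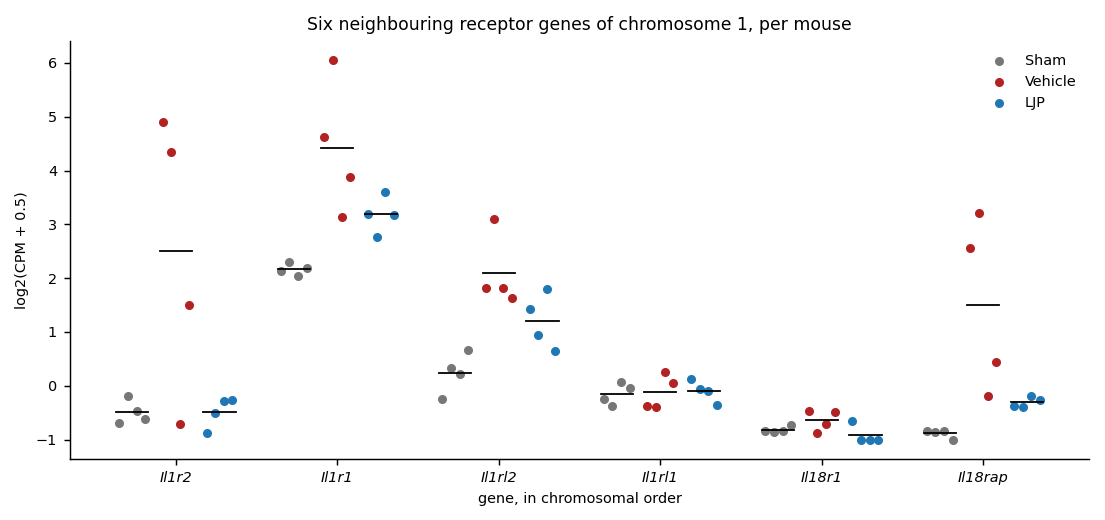
Levels of the 6 neighbouring receptor genes of chromosome 1 in each mouse (vertical axis, log2 of CPM + 0.5), in chromosomal order, with Sham in grey, Vehicle in red and LJP in blue and a line at each group mean. Il1r1 and Il1rl2 are higher in all Vehicle mice than in all Sham mice, Il1r2 in 3 of 4, and Il1rl1 overlaps in all groups.

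Of the 11 further family members listed, 4 were tested and all passed in Vehicle against Sham (39.9% of all genes did), in opposite directions. Besides Il1rl2, the inhibitory receptor Sigirr rose by 1.21 (edgeR adjusted p = 0.0243). It lost this without Sham mouse 1 (1.06, edgeR adjusted p = 0.0721), without Vehicle mouse 2 (0.71, edgeR adjusted p = 0.0856) and without Vehicle mice 1 and 2 (0.28, edgeR adjusted p = 0.503). The neuronal receptor-like genes Il1rapl1 and Il1rapl2 fell by 0.68 (edgeR adjusted p = 0.0125) and 0.94 (edgeR adjusted p = 0.0143) on the log2 scale, beside lower neuron marker sums in the Vehicle group, whose part was not tested. Without Vehicle mice 1 and 2 they were at -0.41 (edgeR adjusted p = 0.0667) and -0.49 (edgeR adjusted p = 0.0661). None of the 4 passed in LJP against Vehicle. The interleukin 36 ligand gene listed as Il1f9 (Il36g) had 15, 13, 0 and 1 counts in Vehicle mice, 1 count in LJP mouse 1 and none in the others, and Il1f6, Il1f8 and Il1f10 had no count in any mouse. Il1f5 (Il36rn) had 0 to 8 counts per mouse.

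Genes that process the ligands were mostly raised after ischemia. Of 17 inflammasome and processing genes, 13 were tested and 11 rose in Vehicle against Sham (22.7% of all genes did), with a median log2 fold change of 1.52 (0.00 over all genes). Pycard, the adaptor of inflammasomes, rose by 3.07 (edgeR adjusted p = 0.000113) and Casp8, a caspase that can cleave the interleukin 1 beta precursor, by 2.69 (edgeR adjusted p = 0.000378). Casp4, the sensor of intracellular lipopolysaccharide, had 0 to 3 counts in Sham and 16 to 108 in Vehicle mice (edgeR adjusted p = 0.000441), and like Casp1 and Nlrp1b was tested only through the mice with ischemia. Of the 10 genes that the Sham counts alone would have kept, 8 rose, with a median of 1.34 over the 10. Without Vehicle mice 1 and 2, 8 of the 13 passed as higher (16.1% of all genes). In LJP against Vehicle none of the 13 passed, and all 13 fold changes were below 0 (median -0.58). The filter favours this sign in Casp1, Casp4 and Nlrp1b. The other 10 were below 0 as well, with a median of -0.66. Of the 13, 9 stayed below 0 and 4 lay above when Vehicle mice 1 and 2 were left out (median -0.21). The smallest p-values there were those of Casp4 (-2.33, edgeR adjusted p = 0.0678), Ninj1, which ruptures the membrane of dying cells (-0.98, edgeR adjusted p = 0.0699), and the neutrophil protease gene Prtn3 (-1.03, edgeR adjusted p = 0.0884). DESeq2 called 3 of its 14 tested genes lower (9.15% of all genes). In LJP against Sham, Pycard, Casp8 and Gsdmd passed, all higher (4.75% of all genes passed in either direction). DESeq2 called 7 of 15 higher there (5.67% of all genes), and edgeR without Vehicle mice 1 and 2 called 10 of 13 (12.7%). Of 8 microglia markers, 6 rose in Vehicle against Sham (22.7% of all genes did). In LJP against Sham 6 of the 8 were higher (4.75% of all genes passed in either direction). Their part in the values of this list was not tested.

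All 20 genes of the signaling chain below the receptor were tested, and 7 rose and 1 fell in Vehicle against Sham, with a median of 0.14. The 8 called are the share found over all genes (39.9% in either direction, 22.7% higher), so the count is no result about the chain. Irak4, the kinase recruited by MyD88, rose by 2.29 (edgeR adjusted p = 0.000649), Myd88 by 2.06 (edgeR adjusted p = 0.000811) and Map3k8, a kinase upstream of the MAP kinases, by 2.97 (edgeR adjusted p = 0.00174), the last tested only through the mice with ischemia (6 to 20 counts in Sham). Irak3, an inhibitor of the same complex, Map3k3, Traf6 and Irak1 also rose, and Ube2n fell by 0.34. The genes of the TAK1 and IKK complexes (Map3k7, Tab1, Tab2, Tab3, Chuk, Ikbkb and Ikbkg) did not pass. In LJP against Vehicle none of the 20 passed in edgeR (median -0.05), and DESeq2 called 4 lower and 1 higher (9.15% and 3.69% of all genes). With Vehicle mice 1 and 2 left out the medians were 0.03 in Vehicle against Sham and -0.01 in LJP against Vehicle, where 10 genes were above and 10 below 0. Map3k8 (-2.06), Irak3 (-1.83) and Myd88 (-1.24) had the smallest p-values, each with an edgeR adjusted p of 0.0678.

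Genes that interleukin 1 is known to induce were higher in Vehicle than in Sham mice. Of 20 listed, 16 were tested and these 16 rose (22.7% of all genes did), with a median log2 fold change of 3.08. Among the 16, 7 (Cxcl1, Ccl2, Csf3, Lcn2, Saa3, Sele and Steap4) were tested only because of their counts after ischemia, so their part of the count and of the median was fixed by the filter. The 9 that the Sham counts alone would have kept rose as well, with a median of 2.06. Without Vehicle mice 1 and 2, 11 of the 16 passed (16.1% of all genes) and the median was 1.84. Csf3, the granulocyte growth factor, had 0 to 2 counts in Sham, 47 to 111 in Vehicle and 0 to 1 in LJP mice. It passed in both comparisons (edgeR adjusted p = 8.24e-05 and 0.000929), the single call of the list in LJP against Vehicle. Lcn2, an iron-scavenging acute phase protein, rose by 7.15 (edgeR adjusted p = 0.000228) and the protease inhibitor Timp1 by 5.71 (edgeR adjusted p = 0.000338). In LJP against Vehicle the 16 were below 0 (median -2.46), a sign that the filter also favours in the 7 genes named. The other 9 were below 0 as well, with a median of -1.39. Over the 16, without Vehicle mice 1 and 2, which stood apart in neutrophil and monocyte markers, the median was -0.66. Saa3, with 49 to 1180 counts in Vehicle and 3 to 15 in LJP mice, and the prostaglandin E synthase gene Ptges (-2.83) each had an edgeR adjusted p of 0.0678. DESeq2 called 15 of 17 lower there (9.15% of all genes). Lcn2 and Timp1 passed in LJP against Sham, both higher (4.75% of all genes passed in either direction), and 7 of 16 did without Vehicle mice 1 and 2 (12.7% passed as higher). Other cytokines induce the same genes, and these comparisons share the Vehicle mice.

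**Figure D5:**
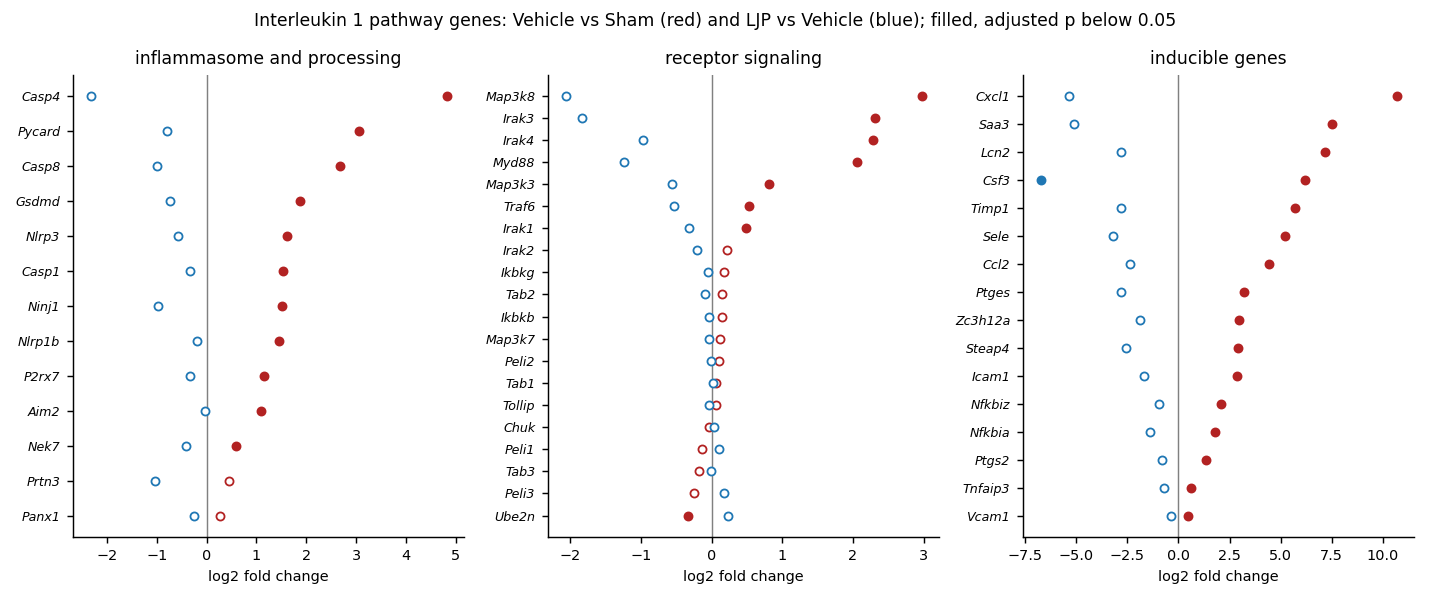
Log2 fold changes (horizontal axis) of the tested genes of the 3 pathway lists, with Vehicle against Sham in red and LJP against Vehicle in blue and filled points for an adjusted p below 0.05 in edgeR. In Vehicle against Sham 11 of 13, 8 of 20 and 16 of 16 genes passed, and in LJP against Vehicle 1 of them did, Csf3.

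The genes whose profiles over the 12 mice were most like each tested member were found by the root mean square difference of standardized log2 CPM, where 0 is identity. The nearest were Rps4x (0.114), Rps18 (0.114) and Tpm4 (0.120) for Il1r1. For Il33 they were Leng1 (0.273), Loxl4 (0.324) and Lbh (0.390), and for Il1a Ermard (0.344), Recql4 (0.361) and Mexis (0.368). For Il1rap they were Myo18b (0.274), Bach2os (0.429) and 9530036O11Rik (0.443), for Il18 6430590A07Rik (0.273), Gm42259 (0.287) and LOC108167376 (0.293), and for Il18bp Gm35883 (0.504), Ttll13 (0.556) and Spata3 (0.559). The profile of Il1r1 was thus matched more closely than those of the other members. Its nearest genes rose in Vehicle against Sham by smaller amounts, 0.85 for Rps4x, 1.01 for Rps18 and 2.44 for Tpm4 on the log2 scale.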

How the data were processed

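Poly(A) RNA of ischemic hemispheres from 12 mice (4 Sham, 4 Vehicle, 4 LJP) was sequenced as paired-end reads. The authors deposited raw counts per gene and mouse, without normalization, beside the length of each gene. The submitters' processing notes name featureCounts and DESeq2 and the builds GRCm39 and mm10. Positions of all 10 members equal RefSeq on GRCm38.p6. The aligner and the strand setting are not given in the sources used here. Groups came from the sample labels.

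The deposited counts were tested with the quasi-likelihood method of edgeR 4.0.16 (R 4.3.3) on the 17558 genes kept by filterByExpr, with TMM scaling and 1 fit of the 3 groups together. Adjusted p-values follow Benjamini and Hochberg over all genes tested, with a threshold of 0.05. CPM used the normalized library size. Members removed by the filter were compared by exact permutation tests against both sides of log2(CPM + 0.5), with unadjusted p-values (4 members and 4 other family genes, 3 comparisons), in scipy 1.17.1. Ratios of summed counts carry 95% exact binomial counting intervals. Plots used matplotlib 3.10.9. Whether the Sham mice alone would have kept a gene was read with the same filter (10 counts at the median library size in all 4). The fit was also run on counts simulated with the same spread in all groups, which leaves the wider spread of the Vehicle mice unchecked. Mice of a group differed beyond sampling noise (smallest chi-square over its degrees of freedom 2.56). No label ties replicate numbers to litters or days, and p-values measure the spread between the mice sequenced.

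Alternatives were DESeq2 1.42.0, RLE or library size scaling, no filter on low counts, fits of the groups compared only, the replicate number as a block, the thresholds of the study's methods (p under 0.01 and log2 fold change over 0.58), pseudocounts of 0.1 and 1 CPM, leaving out each mouse and, added after the data were seen, leaving out Vehicle mice 1 and 2. The members and gene lists were chosen with earlier results of these data known. Named were all members, the other family genes, the 3 genes of each pathway list with the smallest p in Vehicle against Sham and in LJP against Vehicle, and the 3 nearest profiles of each tested member. Other genes named in the signaling list were chosen after their values were seen.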

Additional observations from a re-analysis of the deposited data

Results flagged for a closer look

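In each group of 4 mice the gap between the highest or lowest mouse and its nearest neighbour was divided by the range of the group. Of 30 groups examined (10 genes in 3 groups), 4 passed Dixon's 95% critical value, which chance passes in about 1 of 20 groups. Il1rn was highest in Sham mouse 1 (0.953), with 2 counts against 1 in each of the others, and highest in Vehicle mouse 1 (0.955), with 81 counts against 6 to 11. Il1rap was highest in LJP mouse 3 (0.841), at 36.2 CPM against 29.3 to 30.4. Il33 was lowest in Vehicle mouse 4 (0.899), at 52.5 CPM against 60.3 to 61.2.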

How the results depend on the processing

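Il1r1 kept its rise in Vehicle against Sham under every alternative run. The count of members called there was 3, and it was 5 in DESeq2, 6 when genes with few counts were kept, 1 without Vehicle mice 1 and 2, and 1 to 4 when single mice were left out (1 without Sham mouse 1 or 3, 2 without Sham mouse 2). In LJP against Vehicle it was 0, and it was 3 with DESeq2, 2 with no filter, 1 at the thresholds of the study's methods and 0 to 1 without single mice. In LJP against Sham it was 0, and it was 3 with only those groups in the fit, 2 without Vehicle mice 1 and 2, 1 at the study's thresholds and 0 to 1 without single mice. Over all genes, Vehicle against Sham gave 7014, 3807 at the study's thresholds and 5297 to 8120 without single mice. LJP against Vehicle gave 4, against 2298 with DESeq2, 593 with no filter, 2 in the fit of those groups alone, 7 without Vehicle mice 1 and 2, 1223 at the study's thresholds and 3 to 3836 without single mice (3836 without Vehicle mouse 3, 2109 without Vehicle mouse 4). LJP against Sham gave 834, against 1458 with DESeq2, 4062 in the fit of those groups alone, 4401 without Vehicle mice 1 and 2 and 392 to 2377 without single mice (392 without LJP mouse 3, 515 without LJP mouse 1, 399 to 461 without each Sham mouse, 2377 without Vehicle mouse 2). Where a fit drops the Vehicle mice or 2 of them, the estimate of the spread changes by construction. The causes of the other differences were not tested. With the replicate number as a block, 4 members (Il1rap added at 0.23, adjusted p = 0.0428), 0 and 0 were called in the 3 comparisons, and 6110, 2 and 464 of all genes. The numbers share no stated litter or day, same-numbered mice correlated between -0.322 and 0.114, and 2 of 12 mice correlated best with their own number. With a pseudocount of 0.1 CPM the log2 ratio of Il1rn to Il1b differed by 1.63 between LJP and Vehicle (0.92 at 0.5 CPM) and by 1.30 between LJP and Sham (0.55). Direction turned in values near 0 and in genes with few counts. In LJP against Vehicle these were Il1rap (-0.0082 by library size, -0.040 without Vehicle mice 1 and 2, -0.062 to 0.085 without single mice), Il18bp (-0.025 by library size, -0.0042 in the fit of those groups, -0.049 to 0.055 without single mice) and Il1a (-0.24 to 0.28 without single mice). Elsewhere they were Il18 in Vehicle against Sham (0.010 without Vehicle mice 1 and 2) and, in LJP against Sham, Il1r2 (-0.011 at 0.1 CPM), Sigirr (-0.063 to 0.20 without single mice) and Csf3 (-1.03 to 0.38 without single mice). Leaving out single mice gives no permutation test, since 3 against 4 mice cannot pass. Counts limit Il1b, Il1rn, Il1r2 and Il1rl1 in Sham and LJP mice, where most values lie at or below 10.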

Other observations

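The study's own quantitative PCR primers for the ligands can be set beside the mouse transcripts. Its Il1b primers were aligned to the Il1b transcript of GENCODE M21 (1356 bases), with mismatched bases in capitals and positions counted from 1 at the primer's 5′ end.
Il1b first primer: aataCcacttgttggCtTa
Il1b first site, antisense strand, transcript bases 545 to 563: aataTcacttgttggTtGa
Il1b second primer: tgtgaTgttcccattagac
Il1b second site, sense strand, transcript bases 433 to 451: tgtgaCgttcccattagac
The first primer differed from its best site at 3 of 19 bases (C5T, C16T and T18G, with the base of the primer before the position and that of the site after it) and the second at 1 of 19 (T6C). The listed primers for Csf3, Tnf and Il6 matched their transcripts with 0 mismatches. What these mismatches do in the assay was not tested, and the sequencing counts of Il1b do not depend on them.

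The 4 mice of the Vehicle group fell into different orders for different members. Vehicle mouse 2 was highest for Il1r1 (66.2 CPM, above mouse 1), mouse 1 for Il1b, Il1rn and Il1r2 (4.36, 3.68 and 29.2 CPM against 2.49, 0.473 and 19.9 in mouse 2), and mouse 4 for Il1a (1.08 CPM). Vehicle mouse 3 was highest for Il1rap, Il18, Il33 and Il1rl1 (35.4, 9.04, 61.2 and 0.700 CPM) and lowest for Il1a, Il1b, Il1rn, Il1r1 and Il1r2 (0.646, 0.269, 0.323, 8.34 and 0.108 CPM). For Il18bp mouse 2 was highest and mouse 4 lowest (3.61 and 2.91 CPM).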
